A study of Mus musculus with 2 samples.

Results

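Divergent coding gene pairs are 2 protein-coding genes on opposite strands whose 5′ ends face each other across a short gap, so that transcription runs outward from a shared stretch of DNA. All such pairs in the GENCODE M21 annotation of the mouse genome (GRCm38/mm10) were taken where the outermost annotated 5′ ends were separated by 1 to 1000 bp, the gene bodies did not overlap, and the genes lay on chromosomes 1 to 19 or X. This gave 752 pairs made of 1483 genes, or 6.82% of the 21755 coding genes on these chromosomes. The gaps ran from 2 to 986 bp with a median of 129 bp (quartiles 66 and 239 bp), and 617 pairs (82.1%) had a gap of 300 bp or less. For 21 genes membership was in 2 pairs, and 710 pairs shared no gene with another. In the annotation Hspd1-Hspe1, Dtx3l-Parp9, Tap1-Psmb9, Col4a1-Col4a2, Ppat-Paics, Surf1-Surf2 and Tcp1-Mrpl18 overlap at their outermost ends, so these well-known head-to-head neighbours are not members.

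H3K79me2 was mapped by ChIP-seq in primary macrophages grown from C57BL/6J mouse bone marrow and left unstimulated. The data are 1 group of 2 biological replicates with 10 ng of starting DNA each and a common control experiment. There is no treatment, genotype or time point to compare. The labels name 1 donor identifier for the 2 replicates, leave sex unrecorded and the age unknown, and are silent on separate animals or cultures, so differences between the replicates may be technical. Of 12 macrophage marker genes 11 were marked at the outermost start and 12 at any annotated start, while 0 markers of T and NK cells, B cells, neutrophils, fibroblasts, erythroid cells or dendritic cells had a covered base. The replicated list, derived by the authors from both replicates, held 15559 peaks over 93.2 Mb. The list of replicate 1 held 22979 peaks over 63.5 Mb and that of replicate 2 held 31577 peaks over 114 Mb.

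H3K79me2 is placed on the core of histone H3 by Dot1l, which travels with complexes bound to elongating RNA polymerase II. The mark is found over the 5′ part of transcribed gene bodies, beginning just inside the start site, and it is widely used as a sign of transcription elongation. A divergent pair places 2 such start sites side by side, often within a single CpG island and a single nucleosome-depleted region. Many housekeeping genes, among them DNA repair, mitochondrial and histone genes, are arranged in this way. Whether the partners carry the mark together or singly is the question these pairs address.

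Peaks had to cover 200 bp or more of a gene's first 3 kb, counted from the outermost 5′ end and ending early in shorter genes, for that gene to be scored as marked. Of the members 104 (7.01%) were shorter than 3 kb, and in 140 (9.44%) another coding gene overlapped the window, so that a peak there could belong to either gene. A pair is then both-marked, one-marked or neither-marked. A gene without peaks is a gene where none was called, not one shown to lack the mark.

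The gaps below show the kind of DNA that separates the partners. None overlaps an annotated gene. Capitals mark matches on either strand to the GC box GGGCGG, the NF-Y box CCAAT, the ETS motif CCGGAAG or the TATA motif TATAAA. A match is a run of letters and not a shown binding site. The first are from both-marked pairs, with Sqstm1-Mgat4b chosen as a gap that lay fully under a peak.
Sqstm1-Mgat4b (chr11:50210828-50210889, plus strand): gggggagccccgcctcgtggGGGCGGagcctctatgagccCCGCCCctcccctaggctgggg
Atp6v1a-Naa50 (chr16:44139706-44139829, plus strand): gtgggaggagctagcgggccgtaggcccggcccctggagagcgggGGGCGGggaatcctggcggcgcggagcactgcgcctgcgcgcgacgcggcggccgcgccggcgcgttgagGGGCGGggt
Brca1-Nbr1 (chr11:101551956-101552148, plus strand): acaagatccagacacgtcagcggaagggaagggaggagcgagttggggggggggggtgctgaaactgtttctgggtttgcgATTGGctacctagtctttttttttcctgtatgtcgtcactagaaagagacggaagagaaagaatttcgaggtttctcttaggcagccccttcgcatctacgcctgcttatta

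The next are from one-marked pairs, in which the window of 1 gene is covered and that of its partner is bare or nearly so; in Plgrkt-Cd274 a block over Cd274 covers the whole gap and ends 9 bases inside the Plgrkt window. The marked genes are Arcn1, Arpc4, Rer1, Cd274 and Hist2h2be.
Arcn1-Ift46 (chr9:44767846-44767907, plus strand): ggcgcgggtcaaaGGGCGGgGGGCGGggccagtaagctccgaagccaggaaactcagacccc
Tada3-Arpc4 (chr6:113377884-113378114, plus strand): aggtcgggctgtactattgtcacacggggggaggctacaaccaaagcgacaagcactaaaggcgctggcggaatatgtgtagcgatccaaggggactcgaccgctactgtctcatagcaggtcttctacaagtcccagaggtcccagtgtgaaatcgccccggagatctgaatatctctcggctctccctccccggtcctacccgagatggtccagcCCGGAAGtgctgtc
Rer1-Morn1 (chr4:155086383-155086576, plus strand): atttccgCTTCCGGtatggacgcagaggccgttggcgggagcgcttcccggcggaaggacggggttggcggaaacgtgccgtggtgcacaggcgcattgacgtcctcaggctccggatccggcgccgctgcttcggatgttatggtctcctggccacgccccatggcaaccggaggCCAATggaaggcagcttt
Plgrkt-Cd274 (chr19:29367391-29367454, plus strand): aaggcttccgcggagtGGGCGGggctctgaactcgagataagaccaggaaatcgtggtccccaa
Hist2h2ac-Hist2h2be (chr3:96220881-96221118, plus strand): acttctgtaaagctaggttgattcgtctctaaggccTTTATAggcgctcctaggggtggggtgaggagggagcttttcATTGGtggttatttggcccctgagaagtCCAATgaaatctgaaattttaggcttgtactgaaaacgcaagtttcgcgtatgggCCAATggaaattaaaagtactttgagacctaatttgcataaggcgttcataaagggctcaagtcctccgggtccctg

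The last are from neither-marked pairs, a mitochondrial pair and a histone pair, each with 4 matches to the NF-Y box.
Mrps12-Sars2 (chr7:28741821-28741991, plus strand): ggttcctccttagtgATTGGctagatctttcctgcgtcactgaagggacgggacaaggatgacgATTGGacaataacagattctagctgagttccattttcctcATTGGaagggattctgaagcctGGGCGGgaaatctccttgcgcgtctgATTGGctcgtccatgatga
Hist1h2bf-Hist1h2ad (chr13:23574197-23574380, plus strand): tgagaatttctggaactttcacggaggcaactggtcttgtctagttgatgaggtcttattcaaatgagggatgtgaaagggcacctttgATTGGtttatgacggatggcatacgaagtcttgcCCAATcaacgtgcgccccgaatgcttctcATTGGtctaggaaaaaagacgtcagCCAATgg

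Members of divergent pairs were marked more often than coding genes at large. In the replicated list 827 of the 1483 genes (55.8%) were marked, against 30.6% of all 21755 coding genes and 28.8% of the 20272 coding genes in no pair. Replicate 1 alone marked 730 members (49.2%, against 27.5% of all coding genes), replicate 2 marked 959 (64.7%, against 35.9%), and the pooled list marked 929 (62.6%, against 34.5%). The members were above the background in each of the 4 lists.

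Both genes were marked in 277 pairs (36.8%), one in 287 (38.2%) and neither in 188 (25%). Multiplying the marked share of the minus-strand genes by that of the plus-strand genes gives 31.3% both-marked pairs. The products of marked and unmarked shares give 49.3% one-marked pairs. Partners were thus alike somewhat more often than these products. That likeness was not particular to divergent pairs. Among the neighbouring coding genes described below, tail-to-tail and tandem pairs also exceeded their own products. Replicate 1 held 221 both-marked, 299 one-marked and 232 neither-marked pairs. Replicate 2 held 364, 247 and 141, and the pooled list 341, 262 and 149. One-marked pairs were the commonest class in the replicated list and in replicate 1, and both-marked pairs in replicate 2 and the pooled list. No test was made, since the data are 1 group and gene pairs are not replicates.

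**Figure D1:**
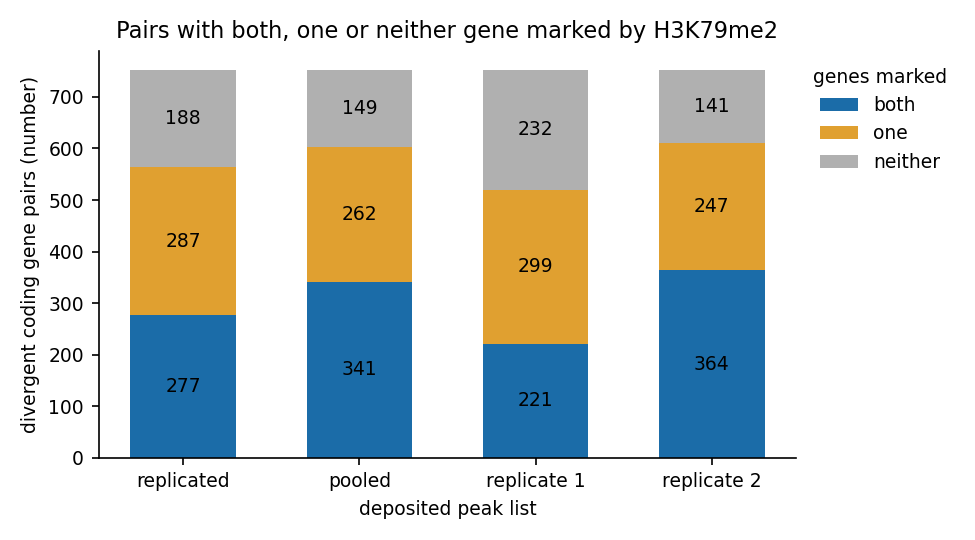
Number of divergent coding gene pairs (vertical axis) with both, one or neither gene marked in each deposited peak list (horizontal axis). The both-marked count runs from 221 in replicate 1 to 364 in replicate 2, with 277 in the replicated list.

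The start sites of members were rich in CpG, and this moved with the marking. CpG-rich here means a CpG ratio (observed over expected) of 0.6 or more together with 50% GC or more, measured over 500 bp to either side of the start. Among members 1219 (82.2%) had a CpG-rich start, against 42.0% of other coding genes. Of CpG-rich starts, 62.2% were marked among members and 52.9% among the others. Of the remaining starts, 26.1% were marked among members and 11.3% among the others. The gap between members and other genes was thus much smaller within CpG-rich starts than over all genes. In the 500 bp centred on the gap, the median GC content was 63.4% in both-marked, 62.4% in one-marked and 59.4% in neither-marked pairs, and the median observed to expected CpG was 0.879, 0.837 and 0.726.

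Orientation was examined over coding genes that directly neighbour each other without overlap. Among 686 head-to-head neighbours with 1 to 1000 bp between them, 37.2% had both genes marked. Over 1000 and up to 2000 bp apart the share was 15.6% of 90 pairs, and from there to 10000 bp it was 13.6% of 701 pairs. Tail-to-tail neighbours within 1000 bp were both marked in 18.6% of 544 pairs and tandem neighbours in 16.4% of 537 pairs. The single genes were marked at unlike rates. From the nearest to the furthest head-to-head distance, 56.3%, 27.8% and 30.3% of genes were marked. In close tail-to-tail pairs it was 38.6% and in close tandem pairs 36.7%. The products of the partners' marked shares were, in the same order, 31.7%, 7.52%, 9.15%, 14.9% and 13.4%. Each both-marked share lay above its product. Where both starts were CpG-rich the both-marked shares lay closer together. They were 43.4% of 542 close head-to-head pairs, 36.8% of 190 close tail-to-tail pairs and 34.7% of 127 close tandem pairs, while tandem pairs over 1000 and up to 2000 bp apart reached 47.3% of 110. The part of CpG content in the head-to-head share was not tested.

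**Figure D2:**
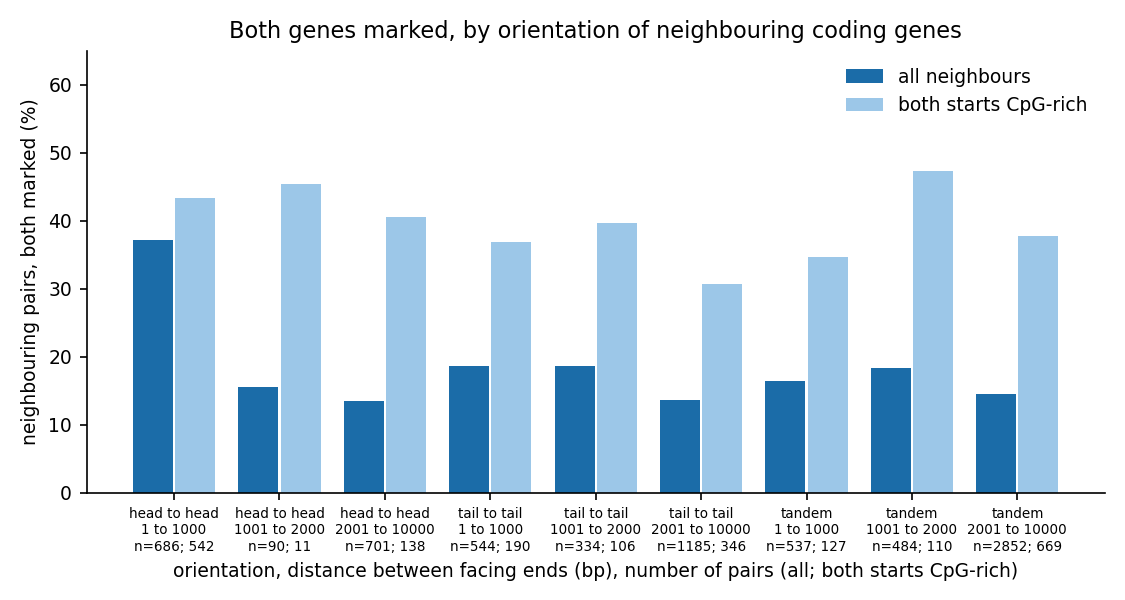
Share of neighbouring coding gene pairs with both genes marked in the replicated list (vertical axis, percent), by orientation and distance in bp (horizontal axis), for all neighbours and for those with CpG-rich starts on both genes. Close head-to-head pairs stand at 37.2% of all neighbours, but within CpG-rich starts their 43.4% lies below the 47.3% of tandem pairs over 1000 and up to 2000 bp apart. The share of single genes marked also differs between these groups.

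Pairs with a gap of 100 bp or less were both-marked most often. Both genes were marked in 42.6% of 129 pairs with a gap of 1 to 50 bp and in 42.1% of 183 pairs above that and up to 100 bp. The share was 36.3% of the 204 pairs above 100 and up to 200 bp. In the next 100 bp, up to 300 bp, 29 pairs were both-marked (28.7%). It was 32.3% of 65 pairs above 300 and up to 500 bp, and 30% of 70 pairs above 500 and up to 1000 bp. Just inside the distance limit, in the last 100 bp up to 1000 bp, 2 of 11 pairs were both-marked, 3 one-marked and 6 neither-marked. Just outside it, above 1000 and up to 1100 bp, 1 of 12 was both-marked, 3 one-marked and 8 neither-marked. The 5 shortest gaps covered all 3 classes. Bag5-Apopt1, separated by 3 bp, was both-marked in the replicated list and replicate 2, with 0 window bases of either gene in replicate 1. Dhrs1-Nop9, separated by 2 bp, was one-marked in the replicated list and replicate 1 and both-marked in replicate 2. Eif2b1-Gtf2h3, separated by 8 bp, was one-marked in the replicated list, neither-marked in replicate 1 and both-marked in replicate 2. Wdr54-1700003E16Rik and Calr3-1700030K09Rik had no covered window base in any of the 4 lists.

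The gap itself was mostly free of peaks. Of the 277 both-marked pairs, 237 (85.6%) had no covered base between the 5′ ends, 29 were partly covered and 11 fully. The peak-free interval across the gap had a median of 861 bp (quartiles 556 and 1304 bp, range 146 to 3262 bp), and the nearer peak edge lay a median of 316 bp inside each gene. The free share was 97.7% in replicate 1, 82.4% in replicate 2 and 87.1% in the pooled list. Of one-marked pairs 274 (95.5%) had a free gap, with the edge a median of 302.5 bp inside the marked gene. A start free of peaks was not particular to pairs. Among other marked coding genes the 5′ end was free in 5362 (92.0%), with the edge a median of 427 bp inside. A gap and a single 5′ end are unlike measures. The 11 pairs with a single block of peaks over the gap had a median gap of 62 bp, against 110 bp where the gap was free, and the block had a median width of 8186 bp. The widest of these gaps were those of Zbtb26-Rabgap1 (143 bp) and Zbtb6-Rabgap1 (107 bp), which share Rabgap1, then Bysl-Gm20517 (96 bp) and Bysl-Med20 (89 bp), which share Bysl, and Mrpl32-Psma2 (74 bp).

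By distance from the 5′ end, coverage was lowest at the gap and higher on either side of it. In genes of both-marked pairs 27.9% of bases in the first 250 bp were covered, and coverage reached 93.3% at 1000 to 1250 bp. On the partner's side the highest value was 92.8%, at 1500 to 1750 bp. The marked gene of one-marked pairs had 25.3% in the first 250 bp and 92.5% at 1000 to 1250 bp. Its partner's side is near 0 by the definition of the class in this list, while in replicate 2 the same side reached 18.5%. In other marked coding genes the highest value was 90.5%, at 1500 to 1750 bp, the bin that was also highest in both-marked pairs in replicate 2. In the replicated list 47.3% of bases of other marked genes were still covered in the last 250 bp up to 10000 bp inside, against 30.5% in both-marked pairs and 33.2% in the marked gene of one-marked pairs.

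**Figure D3:**
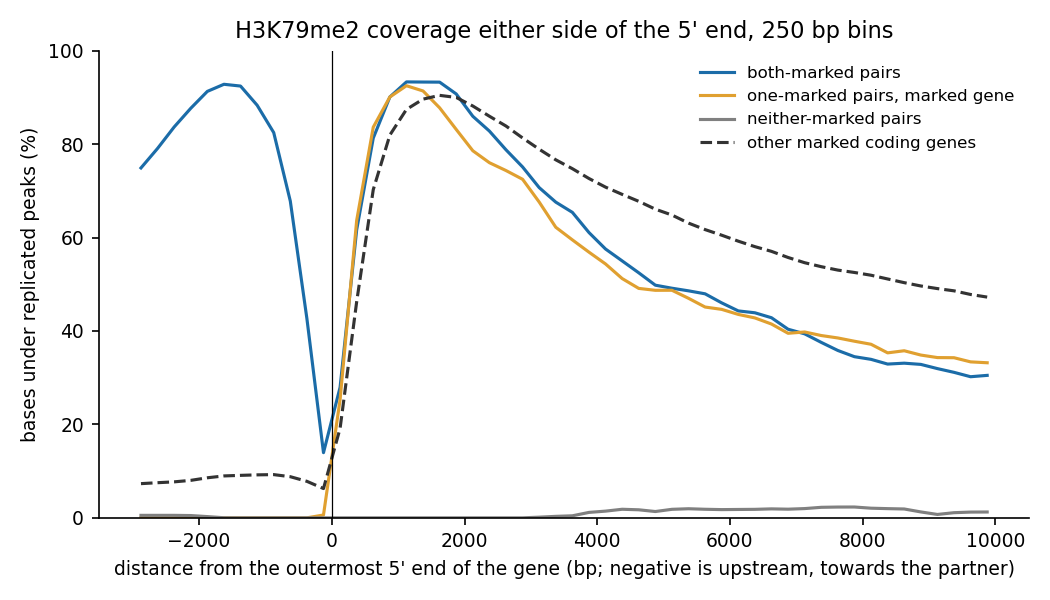
Percent of bases under replicated peaks (vertical axis) by distance from the outermost 5′ end of the gene in 250 bp bins (horizontal axis, negative values upstream); bins past the end of a gene leave that gene out. Coverage of both-marked pairs is 27.9% in the first 250 bp and 93.3% at 1000 to 1250 bp; whether the partner's side is covered follows from the class.

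Genes of both-marked pairs had a median length of 21646.5 bp and a median of 4534 covered bases (quartiles 2505 and 8956), or 27.2% of the gene. The marked genes of one-marked pairs had a median length of 16725 bp and 3915 covered bases. The 5831 other marked coding genes had a median length of 24928 bp and 6495 covered bases, or 35.0% of the gene. The authors' fold of a peak over the control serves here only to rank within the list. Its highest value in the window had a median of 10.9 in both-marked pairs, 9.45 in the marked gene of one-marked pairs and 12.1 in other marked genes.

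Partners that were both marked were little alike in how much. Over the 277 pairs, the log10 covered bases of the partners correlated with Pearson's r of 0.125 and Spearman's rho of 0.112. The peak folds correlated with r of 0.0869 and rho of 0.0666, although partners share library, region and, in 9 pairs, the highest peak. Over the 266 pairs without a block over the gap the folds correlated with r of 0.0312 and rho of 0.0174. The log10 lengths of the partners correlated with r of 0.192 and rho of 0.205 over the 277 pairs. These are descriptions across pairs, which are not independent replicates. The better covered gene had a median of 2.37 times the covered bases of its partner (quartiles 1.52 and 4.21), and it was the longer gene in 190 pairs (68.6%). Over the 554 gene positions the log10 length and log10 covered bases correlated with r of 0.587, and longer genes have more room for covered bases.

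**Figure D4:**
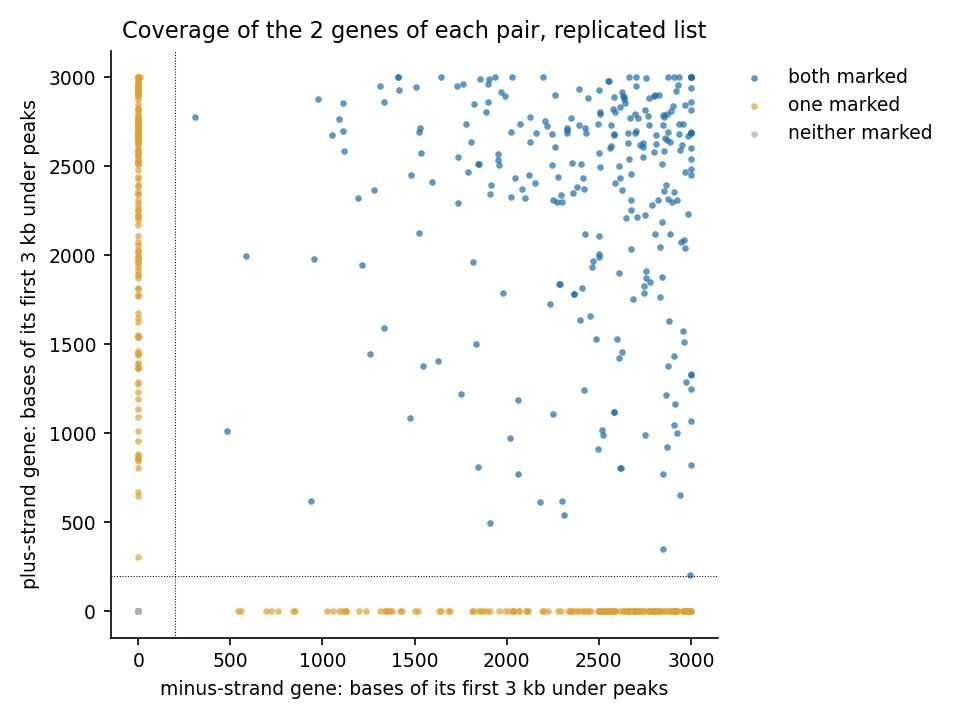
Bases of the first 3 kb under replicated peaks in the minus-strand gene (horizontal axis) and the plus-strand gene (vertical axis), 1 point a pair; dotted lines mark the minimum of 200 bp and the 188 neither-marked pairs lie on the origin. One-marked pairs lie along the axes, and only Plgrkt, with 9 bases, falls between 0 and the minimum.

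The pair with the most covered bases was Srgap2-Fam72a, with 143644 bases over Srgap2, a regulator of Rac signalling and cell shape, and 2978 over Fam72a. In its first 3 kb Srgap2 had 1505 covered bases in replicate 1 and 2610 in replicate 2, and Fam72a had 2130 and 2373. Others of this rank were Baz2b-March7, Hmbox1-Ints9, Polk-Col4a3bp, Cryzl1-Itsn1, Ankrd17-Gm9958, Zfp277-Dock4, Mms19-Ubtd1 and Hs2st1-Selenof. Among them Baz2b-March7, Cryzl1-Itsn1 and Ankrd17-Gm9958 were one-marked in replicate 1, with 0 window bases of Baz2b, 134 of Cryzl1 and 0 of Gm9958. The windows of Cryzl1 and Itsn1 were each overlapped by another coding gene. In Srgap2-Fam72a nearly all of the covered bases lay in the longer gene. Mms19-Ubtd1 had 14031 over Mms19, a factor of iron-sulfur protein assembly, and 47968 over Ubtd1, which is 90.7% of that gene.

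Ranked by the lower fold of the partners, Sqstm1-Mgat4b came first. Sqstm1 encodes the autophagy receptor p62 and Mgat4b a glycosyltransferase of the Golgi. A single block covered their 62 bp gap, with a fold of 27.6 counted for both genes. Sqstm1 had 2711 covered window bases in replicate 1 and 3000 in replicate 2, and Mgat4b had 375 and 757. In replicate 1 the gap was free and the fold over the Mgat4b window was 2.79, against 20.0 over Sqstm1. The high value for Mgat4b thus came with the peak that spans the gap. The same holds for Srsf11-Lrrc40, where a splicing factor gene faces Lrrc40 across 22 bp and a block over the gap gave both genes a fold of 26.8. In replicate 1, where that gap was free, Srsf11 had 15.3 and Lrrc40 5.89.

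Apart from Atg12-Ap3s1, with 34 of 295 gap bases covered, the other pairs of this rank had separate peaks on either side of a free gap. Safb2-Safb joins related genes for scaffold attachment factors, with folds of 27.2 and 26.6 and 239 bp between them. Zfp91-Lpxn joins a ubiquitin ligase gene and leupaxin, a focal adhesion adaptor of blood cells. Its peaks covered 75.1% of Zfp91 and 80.1% of Lpxn. Zfp91 had 1616 covered window bases in replicate 1 and 1623 in replicate 2, and Lpxn 1157 and 1401. Atp6v1a-Naa50 and Atp6v1d-Eif2s1 each join a subunit of the vacuolar proton pump, which acidifies lysosomes, to a gene of protein synthesis or modification. Atp6v1a had 2408 covered window bases in replicate 1 and 2423 in replicate 2, and Naa50, an N-terminal acetyltransferase, had 2097 and 2179. Atp6v1d had 2836 and 2937, and Eif2s1, the alpha subunit of initiation factor eIF2, had 2522 and 2735. The window holds at most 3000 bases, and over the whole gene the replicates differed more, with 29811 and 45885 covered bases of Atp6v1a. The highest fold in its window was 19.1 and 35.1, values that rank only within each replicate's own list. Tmed7-Eif1a, Snx1-Ciao2a, Mms19-Ubtd1 and Atg12-Ap3s1, which pairs an autophagy gene with an adaptor subunit, complete the 10.

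In one-marked pairs nearly all unmarked partners were bare in the window, which largely follows from the class. Of the 287 unmarked partners, 286 had no covered base in the window and 252 (87.8%) none in the whole gene. Unmarked genes elsewhere were much the same. The window was bare in 376 of 376 gene positions of neither-marked pairs and in 14374 of 14441 other unmarked coding genes. Their whole gene was bare somewhat more often, in 91.5% and 94.7%. Among the 287 partners the exception in the window was Plgrkt, with 9 bases there and 1957 over the whole gene. The lowest marked member, Gm5617, had 204, followed by Ccpg1 with 305 and Mrpl41 with 309. Unmarked partners were not shorter than their marked neighbours, with a median length of 20701 against 16725 bp, and the marked gene was the longer in 129 pairs (45.0%). It lay on the plus strand in 143 pairs and on the minus strand in 144. CpG-rich starts were found in 81.5% of unmarked partners, 86.8% of the marked genes facing them, 94.2% of genes of both-marked pairs and 62.0% of genes of neither-marked pairs.

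Some unmarked partners were marked when looked at otherwise. Another annotated start of the gene was marked in 26 (9.06%), as in Rgl1 facing Arpc5, where 30487 bases were covered further inside Rgl1, and in Rps24 facing Polr3a, with 4482. Replicate 2 marked 82 of the 287 (28.6%), the pooled list 61 (21.3%) and replicate 1 none. In none of the 4 lists was there a mark on 205 (71.4%). Of the 376 gene positions of neither-marked pairs, replicate 2 marked 55 and the pooled list 44, and another start was marked in 20. Of the 14441 other unmarked coding genes these counts were 1042, 770 and 517.

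The 10 one-marked pairs with the highest fold and a bare partner are given with their values in both replicates. Tbc1d10b, a Rab GTPase-activating protein gene, had a fold of 32.0 and 2712 and 2827 covered window bases in replicates 1 and 2, while Mylpf, the fast skeletal muscle myosin light chain, had 0 in both. Myl12b, a regulatory light chain of non-muscle myosin, had 2699 and 2724 bases, while Myom1, a protein of the muscle M-band, had 0 in both. Another coding gene overlapped the Myl12b window, so its peak could belong to either gene. Arcn1, the delta subunit of the COPI coat, had 2611 and 2633, while Ift46, of intraflagellar transport, had 0 window bases in both and 902 further in the gene in replicate 2. Anxa5, encoding annexin A5, had 1960 and 2739 across 42 bp from 1810062G17Rik, which had 0 in both. Rer1, a sorting receptor of the early secretory path, had 2592 and 2617, while Morn1 had 0. Gng5, a G protein gamma subunit gene, had 2593 and 2659, while Spata1 had 0. These pairs were chosen for a high fold beside a bare partner, so the separation within them follows from the choice.

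Arpc4, a subunit of the Arp2/3 actin nucleator, had 2865 and 2819 covered window bases, and its partner Tada3, of the SAGA coactivator, had 0 in both. Rnf41, a ubiquitin ligase gene, had 2830 and 3000, and Nabp2, a single-strand DNA-binding protein gene, had 0 in both. For B3galt6-Sdf4 and Gak-Tmem175 the bare partner was marked in replicate 2, B3galt6 with 965 bases and Tmem175 with 1588. In these 2 pairs replicate 2 did not share the class of the replicated list.

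Marked and unmarked partners also differed in base composition inside the gene. Over the first 500 bp of the gene, the median GC content was 62.4% in the marked and 55.8% in the unmarked partner. It was higher in the marked gene in 211 of 287 pairs and lower in 74. The observed to expected CpG had medians of 0.768 and 0.6504 and was higher in the marked gene in 198 pairs. GC skew, the excess of G over C on the coding strand, had medians of 0.0843 and 0.0557 and was higher in the marked gene in 151 pairs and in the unmarked in 136. Whether GC content affects the calling of peaks here was not tested.

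Pairs of known head-to-head genes fell in all 3 classes. Brca1-Nbr1, joining a homologous recombination gene and an autophagy receptor, was both-marked in each list, with 2657 and 2597 covered window bases of Brca1 in replicates 1 and 2 and 1768 and 2138 of Nbr1. Gart-Son, joining purine synthesis and splicing, was both-marked in each list, with folds of 9.21 over Gart and 32.6 over Son. Atm-Npat joins the DNA damage kinase and an activator of histone gene transcription. Npat had 2741 and 2864 bases, while Atm had 0 in replicate 1 and 1609 in replicate 2, so this pair was one-marked in replicate 1. Mcm4-Prkdc was one-marked in each list. Mcm4, of the replicative helicase, had 929 and 1587 bases, and Prkdc, the catalytic subunit of DNA-dependent protein kinase, had 0 in both. Mrps12-Sars2, of the mitochondrial ribosome and mitochondrial tRNA charging, had no covered base in either gene in any list.

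Genes of the transcription apparatus were nearly all marked. Of 27 members encoding RNA polymerase subunits, general factors, Mediator or Integrator, 25 were marked (92.6%, against 71.7% of the 120 such genes in the genome). Their 27 pairs were both-marked in 19, one-marked in 7 and neither-marked in 1. An example is Polr2b, facing Noa1, with both marked. Replicate 1 marked 24 and replicate 2 marked all 27. Of 19 respiratory chain and ATP synthase genes 17 were marked (89.5%, against 81.4% of 86). In all 8 of their one-marked pairs the respiratory gene was the marked one, as in Ndufa5-Asb15 and Uqcrq-Gdf9, where the partners are a muscle gene and an oocyte growth factor. Of 8 proteasome genes 7 were marked (87.5%, against 78% of 50), of 9 cytosolic ribosomal protein genes 8 (88.9%, against 88.0% of 92), and of 18 mitochondrial ribosomal protein genes 14 (77.8%, against 76.9% of 78). For the ribosomal lists the share in pairs was near that of the same list genome-wide.

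Of 30 DNA replication and repair genes 15 were marked, or 50%, near the 55.5% of 110 such genes in the genome and the 55.8% of all members. In their 14 one-marked pairs the list gene was the unmarked partner 10 times and the marked partner 5 times, with both counted in Mcm4-Prkdc, a split that was not tested. The unmarked ones include Rad51b, Rad1, Fancd2, Fancb, Mcm8 and Lig4. For other lists the share of the same list over the genome stands beside each count. Of 18 vesicle traffic genes 14 were marked (77.8%, against 65.8%), of 13 chaperone genes 8 (61.5%, against 53.6%) and of 20 Zfp genes 13 (65%, against 37.6%). Of 16 solute carriers 9 were marked (56.3%, against 28.0%) and of 23 Tmem genes 11 (47.8%, against 32.2%). Of 7 ubiquitin genes 4 were marked (57.1%, against 63.5%) and of 5 aminoacyl-tRNA synthetases 3 (60%, against 67.6%). The pair Zfp942-Zfp943 was both-marked and Zfp944-Zfp758 one-marked. Hspa1a-Hspa1l and Slc25a29-Slc25a47 were neither-marked.

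Replication-dependent histone genes, mostly in divergent H2a-H2b pairs, were largely unmarked under the rule used here. Of 27 such members 2 were marked (7.41%, against 5.97% of 67 in the genome), and their 14 pairs were both-marked in 0, one-marked in 2 and neither-marked in 12. The marked members were Hist1h2bc and Hist2h2be, with 1894 and 1989 covered window bases in the replicated list. In Hist2h2ac-Hist2h2be, the plus-strand gene had 760 bases in replicate 1 and 2032 in replicate 2, and Hist2h2ac had 0 in both. In Hist1h2ac-Hist1h2bc, Hist1h2bc had 0 and 2011. Histone genes are nearly identical copies, and no source used here gives how reads shared between copies were placed. These counts are therefore uncertain, as they are for Hspa1a-Hspa1l. Histone genes are also short, and the scored window ends with the gene. In both-marked pairs with a free gap, the nearer peak edge lay a median of 316 bp inside each gene. In all neither-marked pairs, histone pairs included, 376 of 376 gene positions had no covered window base. With a minimum of 1 bp the neither-marked pairs still numbered 188. The part of gene length in the histone counts was not tested.

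Genes of cilia and flagella, with centrosomal Cep genes, formed a list chosen after the values were seen. Of 32 members 9 were marked (28.1%, against 24.6% of 118 in the genome). Their 32 pairs were both-marked in 7, one-marked in 21 and neither-marked in 4, and in the one-marked pairs the list gene was the bare partner 19 times and the marked one 2 times. Examples are Ift140 facing Cramp1l, Invs facing Erp44 and Cfap57 facing Ebna1bp2, with the mark on the partner. Exceptions with both marked include Ift20 facing Tnfaip1 and Ift80 facing Smc4. Of 20 Ccdc genes, also listed after the values were seen, 5 were marked (25%, against 25.2% of 139). Neither list was tested.

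The list of innate immunity and interferon genes had 5 members in divergent pairs, of which 2 were marked (40%, against 35.4% of 209 in the genome). In its one-marked pairs the list gene was marked 2 times and unmarked 2 times. The following pairs were chosen after their values were seen, for their known roles in macrophages. Cd274, encoding the immune checkpoint ligand PD-L1, had 2642 covered window bases in replicate 1 and 3000 in replicate 2. Its partner Plgrkt, a plasminogen receptor gene, had 0 in replicate 1 and 1019 in replicate 2, where 1 block spanned the 64 bp gap. Ifit1, an interferon-induced gene, had 1410 and 3000 bases, and its related neighbour Ifit1bl2 had 0 and 1588, values that are uncertain where reads are shared between Ifit copies. Irak4, a kinase below Toll-like receptors, had 829 and 2148, while Pus7l had 0 in both. Lcp1, encoding the leukocyte actin bundler L-plastin, had 44211 covered bases over the gene in the replicated list and 2212 and 2905 in the window, while Lrrc63 had 0 in both. Milr1, an inhibitory receptor of myeloid cells, had 1835 and 1690, while Pecam1 had 0 in both. As the pairs were picked with these values in view, no pattern is read from them.

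For other pairs chosen the same way the mark reached both genes in at least 1 replicate. Trp53, encoding p53, had 2355 and 2453 bases and Wrap53, a telomerase cofactor gene, had 1183 and 1841. Sharpin, of the linear ubiquitin ligase complex, had 2314 and 2467, and Maf1, a repressor of RNA polymerase III, had 507 and 1284. Acp2, the lysosomal acid phosphatase, had 1327 and 2333, and Nr1h3, the oxysterol receptor LXR alpha, had 0 and 364.

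The 2 replicates placed 545 of the 752 pairs (72.5%) in the same class, and the others differed in 1 direction only. From replicate 1 to replicate 2, 116 pairs went from one-marked to both-marked, 64 from neither to one and 27 from neither to both, and 0 pairs went to fewer marked genes. Of genes marked in replicate 1, 99.9% were marked in replicate 2, and of those marked in replicate 2, 76.0% were marked in replicate 1; among other coding genes these shares were 99.8% and 76.4%. The classes moved in the same direction as the extent of the replicate's list, which covered 63.5 Mb in replicate 1 and 114 Mb in replicate 2, and the part of that extent in the classes was not tested. Of the 183 pairs that were one-marked in both replicates, 1 had a different gene marked in each. Among the 27 pairs that were both-marked in replicate 2 with no covered window base in replicate 1 were Ddias-Prcp, Fiz1-Gm44973, Bckdha-Exosc5, Gamt-Dazap1 and Rbks-Babam2. Prcp, a lysosomal carboxypeptidase gene, had 0 window bases in replicate 1 and 1683 in replicate 2, and Bckdha, of branched-chain amino acid breakdown, had 0 and 2622.

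Promoter motifs were counted in the 300 bp centred on the gap, on both strands, as plain letter matches. For single genes the window was the 300 bp upstream of the outermost 5′ end, and a second comparison with 300 bp centred on that end was added after the data were seen, because the pair window can include bases inside the genes. The ETS motif CCGGAAG was in 28.1% of pairs, against 7.55% of upstream and 10.5% of centred windows of the 20272 other coding genes. It was in 36.1% of both-marked, 26.1% of one-marked and 19.2% of neither-marked pairs. Among the 4508 other genes with a CpG-rich start and a mark, 17.2% of upstream and 24.9% of centred windows held it. Both-marked pairs held it more often than these. Among all 8520 other genes with a CpG-rich start, marked or not, 13.1% of upstream and 18.5% of centred windows held it. The share over all pairs, 28.1%, lay above both. The motif read towards the marked gene only in 35 one-marked pairs, towards the unmarked gene only in 36 and both ways in 4.

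The TATA motif TATAAA went the other way. It was in 4.39% of pairs, against 14.4% of upstream and 11.2% of centred windows of other genes, and in 2.17% of both-marked, 4.53% of one-marked and 7.45% of neither-marked pairs. CpG-rich other genes held it in 4.07% of centred windows, near the share of the pairs. The GC box GGGCGG, bound by Sp1-type factors, was in 68.0% of pairs, against 38.8% of upstream windows of other genes and 67.1% of those with CpG-rich starts, whose centred windows held it in 75.7%. The NF-Y box CCAAT was in 45.1% of pairs against 39.4% of upstream and 36.0% of centred windows of other genes, and in 48.4% of neither-marked pairs. The YY1 motif GATGGCGG was in 6.52% of pairs against 0.878% of upstream windows, but in 5.28% of centred windows of CpG-rich genes, so this contrast moved with the placing of the window. The NRF1 motif GCATGCGC was in 6.52% of pairs, 2.70% of upstream windows and 5.62% of centred windows of CpG-rich genes, or 7.21% of those that were marked. For the E-box CACGTG these shares were 10.8%, 7.10%, 10.5% and 11.4%. For the cyclic AMP response element TGACGTCA they were 4.39%, 1.94%, 3.52% and 4.24%, and for the ZNF143 motif ACTACAA 5.85%, 3.93%, 2.93% and 3.71%. Beside CpG-rich centred windows the NRF1, E-box and cyclic AMP element contrasts were thus small or turned. No motif was tested.

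**Figure D5:**
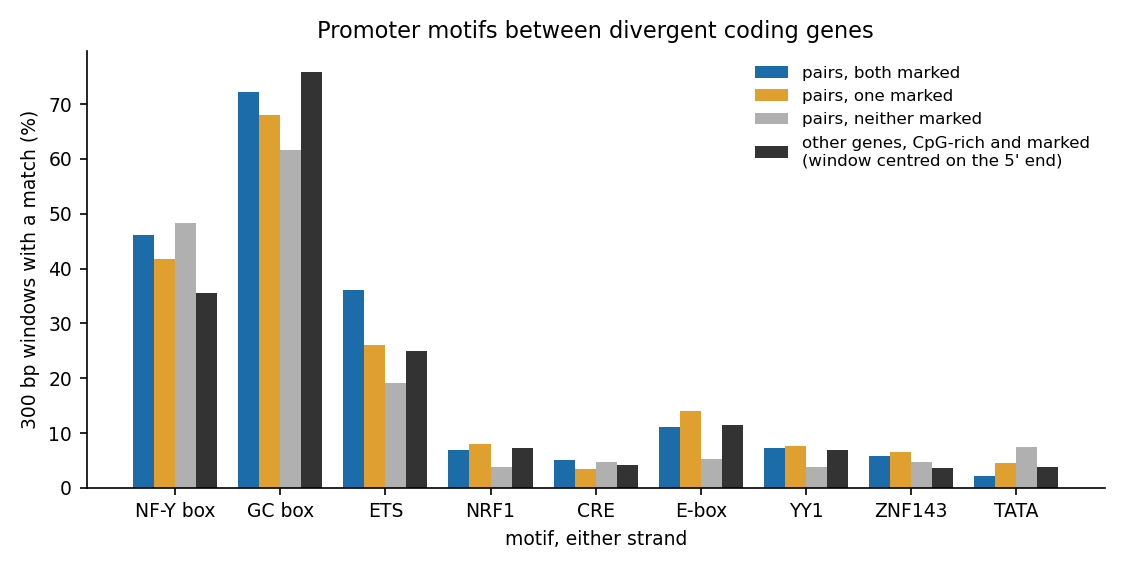
Percent of 300 bp windows with at least 1 match to each motif on either strand (vertical axis) for 9 motifs (horizontal axis), in both-, one- and neither-marked pairs and in other marked genes with CpG-rich starts. The ETS motif stands at 36.1% in both-marked and 19.2% in neither-marked pairs, and the TATA motif at 2.17% and 7.45%.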

How the data were processed

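H3K79me2 ChIP-seq peaks of 1 group of 2 replicates of mouse bone-marrow-derived macrophages were analysed. Per the file notes deposited by the authors, 4 peak lists on mm10 were used: a replicated list, 1 list for each replicate and 1 for the pooled alignments. No source used here names the aligner, the peak caller, its thresholds or how the replicated list was derived. Library depth is unknown. Each deposited peak has a display score, which was not used, and a fold ratio over the control made by the authors, which served to rank peaks. The −log10 p and q columns deposited beside them, and the signal tracks, were left out.

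Overlapping peaks were merged list by list and intersected, in 1-based coordinates, with GENCODE M21 genes on GRCm38 (Python 3.11.15, numpy 2.4.6, pandas 2.3.3, pysam 0.24.0). A gene counted as marked with at least 200 covered bp in its first 3 kb. Sequence came from the GRCm38 RefSeq assembly. The members and gene lists were chosen with earlier results of these data known. Pairs named were those with the most covered bases, the highest lower fold, the strongest one-marked pairs with a bare partner, the shortest gaps, the widest covered gaps, those in replicate 2 only, pairs within a list, and known head-to-head pairs; any other pair or gene named, the examples within lists and the gaps printed among them, was picked with its values in view. Some pairs that these choices take are not reported here. Code was tested on simulated peaks. No significance test was made.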

Additional observations from a re-analysis of the deposited data

How the results depend on the processing

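The 3 class counts were recomputed under 17 other settings, some of which change the number of pairs. Both-marked pairs numbered 277 and stayed within 1.5 times of that under 16 of them, falling to 136 when only peaks at or above the median fold were kept. Neither-marked pairs numbered 188 with 312 under that setting, which leaves fewer peaks, and 105 among the 588 pairs with CpG-rich starts on both genes, an alternative added after the data were seen that leaves fewer pairs. One-marked pairs ranged from 228 of 588 pairs to 314 of 860. As a share they ranged from 32.9% without replicate 1 to 41.0% with a window of 1000 bp. Without replicate 1 the counts were 364 both-marked, 247 one-marked and 141 neither-marked, and without replicate 2 they were 221, 299 and 232. The share of both-marked pairs with a peak-free gap was 85.6%, 82.4% without replicate 1 and 97.7% without replicate 2. The median covered bases were 4422 and 3266 for genes of both-marked pairs, and 4163 and 3009 for the marked genes of one-marked pairs, without replicate 1 and without replicate 2; the cause was not tested. Pairs in the same class in both replicates numbered 520 to 545 with minimums of 1 to 1000 bp. Where no further coding gene overlapped the windows and no gene was shared, 645 pairs gave 231 both-marked, 247 one-marked and 167 neither-marked. Of 50 named pairs 25 stayed in 1 class under all 11 settings run for them. No paired analysis was possible because the samples form 1 group. Depth is unknown, so a missing peak may reflect either the depth or the mark.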

Other observations

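The pairs below were noticed in the data and are given as values only. Rad54l-Pomgnt1 was the 1 pair that was one-marked in both replicates with a different gene marked in each. Rad54l, a recombination helicase gene, had 635 covered window bases in replicate 1 and 0 in replicate 2, and Pomgnt1, a glycosyltransferase gene, had 0 and 1067. Rad54l was also the 1 member marked in replicate 1 but not in replicate 2. The pooled list marked both genes.

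Fam3a-Ikbkg, with Ikbkg encoding the regulatory subunit of the IκB kinase, counted as neither-marked because no base of either 3 kb window was covered in any replicate's list. Further inside Ikbkg, 12767 bases lay under replicated peaks. The window from the outermost 5′ end therefore missed coverage that lay elsewhere in the gene.

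By chromosome, the share of both-marked pairs ran from 20.3% of 59 pairs on chromosome 7 to 60.9% of 23 pairs on chromosome 16. On chromosome 13, which holds the main histone cluster, 19 of 37 pairs were neither-marked, and on the X chromosome 12 of 20 were. No difference between chromosomes was tested.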
